A study of Danio rerio with 24 samples.

Results

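The genes sox9a and sox9b, the 2 zebrafish copies of the vertebrate transcription factor gene Sox9, were followed through every library of the count table. They were taken by symbol, sox9a as ENSDARG00000003293 and sox9b as ENSDARG00000043923, and are 2 of 26347 genes in that table. RNA came from whole embryos, and 16 libraries fell into 4 groups of 4: WT control, WT with TCDD, slincRosu3 control and slincRosu3 with TCDD. TCDD (2,3,7,8-tetrachlorodibenzo-p-dioxin, an agonist of the aryl hydrocarbon receptor AHR) was given at 1 ng/mL from 6 hours post fertilization (hpf), and embryos of all groups were collected at 48 hpf. The authors' comparisons label the WT control as DMSO, while the sample titles name no vehicle. The line slincRosu3 carries a mutation made with CRISPR-Cas9 in slincR, a long intergenic noncoding RNA named for sox9b. Whether its fish were homozygous, how many founders the line has, how many embryos made 1 library, and whether numbered replicates came from separate clutches is not stated in the labels, so p-values measure the spread between these libraries. A further 8 samples of a line labelled BigD were not analysed here.

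Sox9 proteins bind DNA through an HMG box and belong, with Sox8 and Sox10, to the SoxE group. They switch on collagen and proteoglycan genes in chondrocytes, together with the SoxD partners Sox5 and Sox6, and they act in neural crest and in glia. In zebrafish sox9a is needed for cartilage of the head and pectoral fin, while sox9b acts in neural crest derivatives, jaw, fin, heart and retina and is known as a gene with reduced expression in the jaw after TCDD. The gene of slincR lies next to sox9b, and it is known as a transcript that TCDD induces through AHR.

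Total counts per library ran from 17275522 to 20100736, and the marker lists for skeletal muscle (9 of 9 genes), photoreceptors (8 of 8) and glia (11 of 12) had enough counts for a test. The gene of slincR is not analysed here, so the line labels rest on no check of the edited gene. Treatment labels could be checked, since cyp1a, an AHR-induced cytochrome P450 gene, stood at 856 to 1931 CPM in the 8 TCDD libraries and at 2.75 to 5.32 CPM in the 8 controls. CPM are counts scaled to an equal library size with TMM factors. On the first principal component of log2 CPM, with 29.8% of the variance, the 4 highest scores were 56.19 (WT control 4), 53.42 (slincRosu3 control 4), 35.49 (WT TCDD 4) and 32.71 (WT TCDD 3). The next was WT control 1 at 18.06. The step down to it was smaller than that from 53.42 to 35.49, so the cut after 4 libraries is a choice. These 4 are called below the libraries that stand apart. In them the 100 most abundant genes held 35.3% to 38.4% of the total, and 35.1% or less in each remaining library, and the values of both genes without them stand beside the results they move.

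In WT controls sox9b stood at 155.3, 133.7, 112.1 and 159.1 CPM in libraries 1 to 4, from 2156 to 2768 counts. With TCDD the WT libraries held 67.05, 57.82, 131.5 and 102.1 CPM, from 1118 to 2448 counts. Libraries 1 and 2 of that group lay far below every WT control, whereas library 3 fell inside the control range and library 4 just under it. In slincRosu3 controls the level was 99.87, 103.3, 99.2 and 131.6 CPM, so that 3 libraries were nearly equal and library 4 stood above them. With TCDD the mutant line had 97.99, 78.06, 58.36 and 82.95 CPM, each below all 4 of its controls, the nearest pair being 97.99 and 99.2 CPM. A lower level in whole-embryo RNA can come from fewer cells of a type or from less RNA per cell, and these cannot be told apart.

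**Figure D1:**
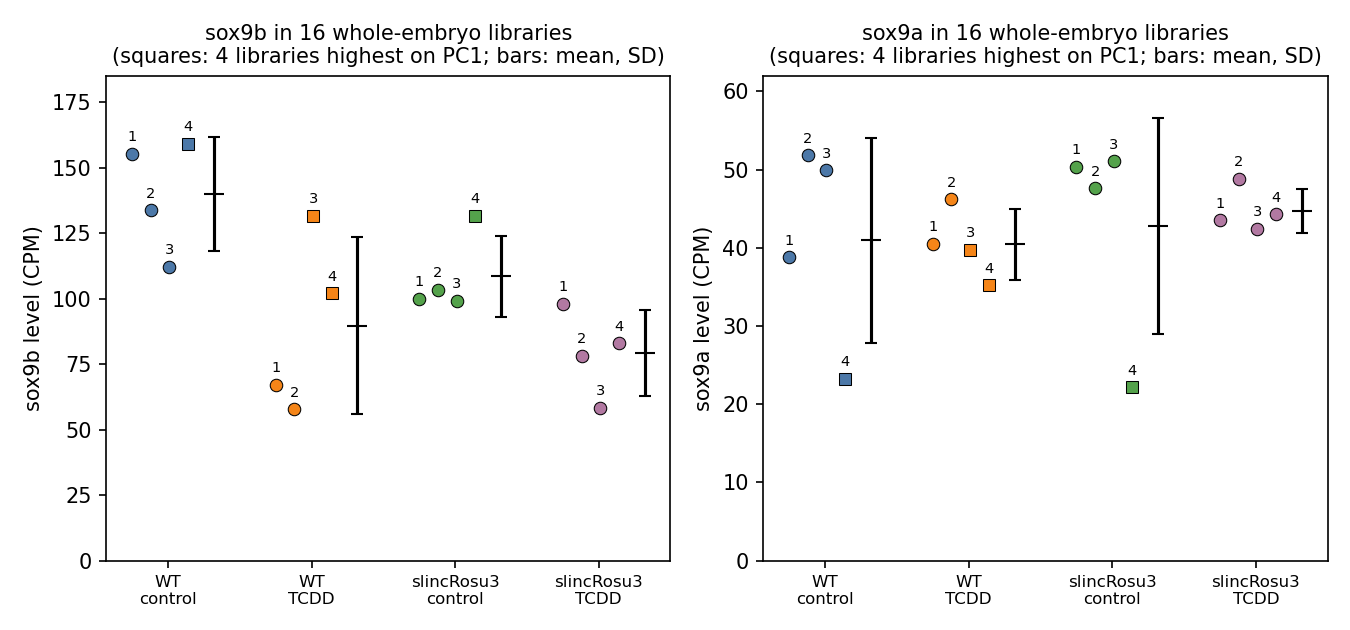
Level of sox9b (left) and sox9a (right) in CPM, 1 point per library with its replicate number, by group; black bars give the group mean and SD (n = 4) and squares mark the 4 libraries highest on the first principal component (PC1). The sox9b points of slincRosu3 with TCDD, 58.36 to 97.99 CPM, lie under all 8 controls, while WT with TCDD spans 57.82 to 131.5 CPM, and sox9a is lowest in both control libraries numbered 4.

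The comparison of TCDD with control asks whether the dioxin changed sox9b. In WT the mean was 140 ± 21.7 CPM in controls and 89.6 ± 33.8 CPM with TCDD (SD, n = 4 each), a log2 fold change of -0.64 with a 95% interval of -1.10 to -0.19. By edgeR's quasi-likelihood test it ranked 398 of 20907 genes by p-value and did not pass after Benjamini-Hochberg adjustment over all of them (adjusted p = 0.414). In this contrast 0.325% of genes passed, and 0.0287% passed as lower. In slincRosu3 the mean was 108 ± 15.5 CPM in controls and 79.3 ± 16.4 CPM with TCDD (SD, n = 4 each), a log2 fold change of -0.45 (95% interval -0.90 to 0.000635) that missed the threshold in edgeR's test (adjusted p = 0.999). Here 0.383% of genes passed, and 1.59% of all genes were lower in the TCDD group with no overlap, as sox9b was. Averaged over both lines the log2 effect of TCDD on sox9b was -0.55 (SE 0.152, 95% interval -0.87 to -0.23), 1.46-fold lower. That effect ranked 287 of 20907 and did not pass by edgeR's test (adjusted p = 0.153), in a contrast where 0.804% of genes passed. DESeq2's Wald test gave the averaged effect of -0.55 an adjusted p of 0.0415, under the threshold of 0.05. Of 16 edgeR fits that each left out 1 library, 1 passed, that without WT TCDD 3 (adjusted p = 0.0237). In the others edgeR's adjusted p reached 0.322. WT TCDD 3 held the most sox9b of the 8 TCDD libraries, so the pass without it is no support for an effect.

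The WT value turned on the libraries that stand apart. Without all 4 of them the WT means were 133.7 CPM over 3 controls and 62.43 CPM over 2 TCDD libraries, and the log2 fold change of sox9b was -1.09 by edgeR's test (adjusted p = 0.00487). In slincRosu3 the same step left 100.8 CPM over 3 controls and 79.34 CPM over 4 TCDD libraries, a log2 fold change of -0.35 (adjusted p = 0.286). The averaged effect of TCDD was then -0.72 (adjusted p = 0.00234). The 4 libraries were picked by a component of these same data, here and in every fit without them. Leaving them out removes the 2 WT TCDD libraries with the most sox9b, 131.5 and 102.1 CPM. These adjusted p-values therefore show how far the result depends on them and are no support for a stronger effect. Beside these values, cyp1a stood at 1231, 1145, 856.2 and 1081 CPM in WT TCDD 1 to 4, lowest in the library with the highest sox9b. Over 10 AHR target genes, the mean log2 CPM centred on all 16 libraries was 1.22 in WT TCDD 3 and 1.3 in WT TCDD 4. It was 1.72 to 1.97 in the other TCDD libraries. WT TCDD 3 and 4 also had the fewest genes with a count, 24778 and 24782 against 24983 to 25471 in the other 14 libraries, and the largest share of WT reads assigned to genes, 42.5% and 43.2% against 39.8% to 41.6%. Over all groups, sox9b was 102.1 to 159.1 CPM in the 4 libraries apart and 57.82 to 155.3 CPM in the other 12, and sox9a 22.16 to 39.74 against 38.76 to 51.81 CPM. The sox9a ranges overlapped only between 38.76 and 39.74 CPM, and within WT TCDD the 2 libraries apart were the 2 with more sox9b. The part of AHR target level, read assignment and gene number in the sox9b values was not tested.

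The comparison of slincRosu3 with WT asks how sox9b, the neighbor gene of slincR, differed between the lines. Among the groups used only slincRosu3 carries the mutation, so its effect cannot be told apart from the line's background or clutches. Where the mutation is named in a comparison, it stands for the line as a whole. Without TCDD the mutant mean of sox9b differed from WT by -31.56 CPM, a log2 fold change of -0.37 with a 95% interval of -0.82 to 0.082, and it missed the threshold in edgeR's test (adjusted p = 0.559; 1.54% of genes passed). The groups overlapped through slincRosu3 control 4 at 131.6 CPM and WT control 3 at 112.1 CPM. With TCDD the log2 difference was -0.18 (95% interval -0.63 to 0.28; adjusted p = 0.776 by edgeR, with 1.86% of genes passing). It changed sign to 0.34 without the 4 libraries that stand apart (adjusted p = 0.28) and to 0.068 without WT TCDD 3 alone (adjusted p = 0.935). With all libraries in the fit, cyp1a differed between the lines with TCDD. It stood at 1655 to 1931 CPM in slincRosu3 and at 856.2 to 1231 CPM in WT (log2 fold change 0.70, edgeR's adjusted p = 0.0151). The part of this in the sox9b values was not tested. Averaged over treatments the line difference of sox9b was -0.27 (95% interval -0.59 to 0.047; edgeR's adjusted p = 0.357, with 5.45% of genes passing), and -0.031 without those 4 libraries. These intervals bound the line difference of sox9b and do not show that there was none.

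Only the contrast that joins mutation and TCDD passed for sox9b among the 8 contrasts of edgeR's fit. From WT control to slincRosu3 with TCDD its log2 fold change was -0.82 (SE 0.215, 95% interval -1.27 to -0.37), 1.77-fold lower, with adjusted p = 0.0468 at rank 613 of 20907. In this contrast 3.14% of all genes passed, 1.21% as lower, and 5.6% were lower with no overlap between the groups, as sox9b was with at most 97.99 against at least 112.1 CPM. The call is close to the threshold: leaving out 1 library ended it in 11 of 16 fits (adjusted p from 0.0514 to 0.155). Those were WT control 1, 2 and 4, WT TCDD 4, slincRosu3 control 1, 2 and 3, and each of the 4 slincRosu3 TCDD libraries. It also ended with no filter on low counts (adjusted p = 0.0504) and held by DESeq2's Wald test (adjusted p = 0.00977) and without the 4 libraries apart (-0.75, adjusted p = 0.00479).

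Additivity asks whether the sox9b difference from WT control under mutation and TCDD together matched both single differences combined. Neither single difference passed in edgeR's test (adjusted p = 0.414 for TCDD in WT and 0.559 for the mutation without TCDD), so the levels expected from them are uncertain. On the linear scale the mean differed from WT control by -50.43 CPM in WT with TCDD and by -31.56 CPM in slincRosu3 without TCDD, which sum to -81.99 CPM. With both it differed by -60.71 CPM. The sum would put the double condition at 58.06 CPM and the product of both ratios at 69.42 CPM, and the measured mean was 79.34 ± 16.4 CPM (SD, n = 4). The measured mean thus lay above both, while the group's lowest library, at 58.36 CPM, lay under the product and close to the sum. On the log2 scale the departure from additivity was 0.19 (SE 0.302, 95% interval -0.44 to 0.83) and missed the threshold in edgeR's test (adjusted p = 0.996). The interval spans from a 0.735-fold to a 1.78-fold departure, so neither a weaker nor a stronger joint effect of that size can be told from additivity here. In this contrast edgeR called 0 of 20907 genes (0%), 899 (4.3%) had an unadjusted p under 0.05, and DESeq2 called 0. Without the 4 libraries that stand apart the departure of sox9b was 0.74 (edgeR adjusted p = 0.184), larger than with them, and in that setting 20 genes passed. Leaving out 1 library moved it from 0.031 without WT TCDD 2 to 0.44 without WT TCDD 3 (adjusted p from 0.83 to 1.00).

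**Figure D2:**
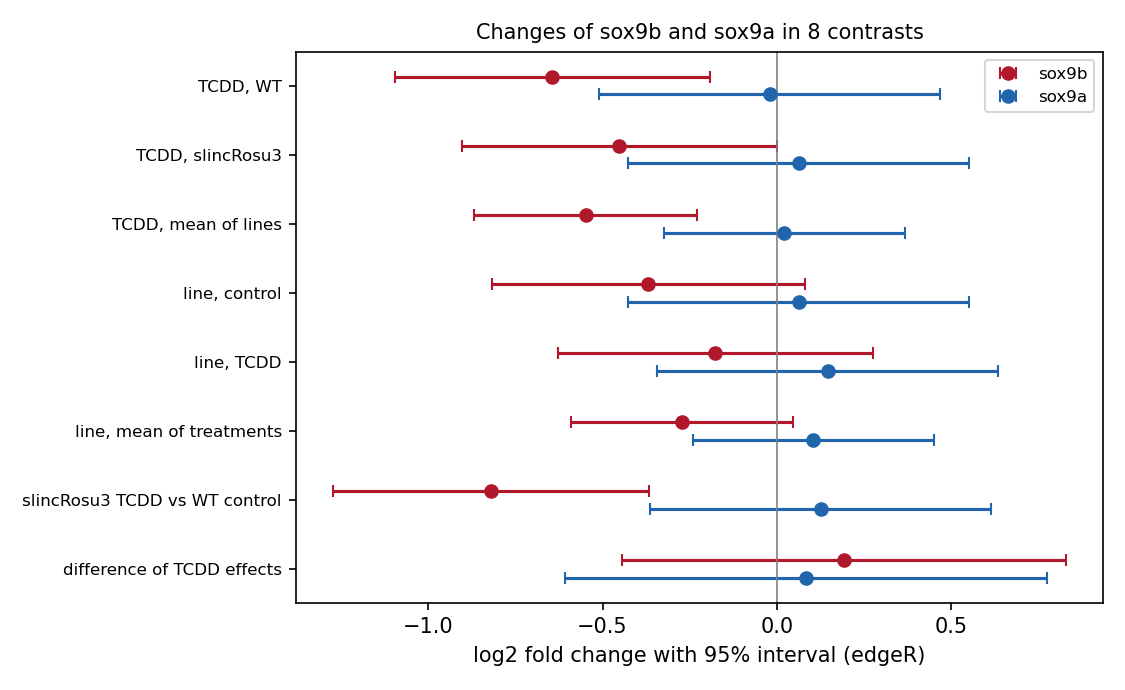
Log2 fold change of sox9b (red) and sox9a (blue) in 8 contrasts of 1 edgeR fit over 16 libraries; bars are 95% intervals and the grey line is no change. The sox9b points lie below 0 in every contrast but the difference of TCDD effects, from -0.82 to -0.18, and every sox9a interval spans 0.

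The paralog sox9a showed no difference past the threshold. In WT controls it stood at 38.76, 51.81, 49.94 and 23.27 CPM, and in WT with TCDD at 40.53, 46.23, 39.74 and 35.22 CPM. The slincRosu3 controls held 50.36, 47.64, 51.05 and 22.16 CPM, and the slincRosu3 TCDD libraries 43.5, 48.81, 42.43 and 44.3 CPM. Both control libraries numbered 4 lay below every other library, and the 8 TCDD libraries, at 35.22 to 48.81 CPM, overlapped the remaining 6 controls, at 38.76 to 51.81 CPM. Group means were 40.9 ± 13.1, 40.4 ± 4.52, 42.8 ± 13.8 and 44.8 ± 2.81 CPM in that order (SD, n = 4 each). The log2 effect of TCDD on sox9a averaged over lines was 0.022 (95% interval -0.32 to 0.37) by edgeR's test (adjusted p = 0.994), and it was -0.19 without both control libraries numbered 4 (adjusted p = 0.319). The averaged line effect was 0.10 (95% interval -0.24 to 0.45; adjusted p = 0.805) and 0.064 without the 4 libraries apart, the joint condition against WT control gave 0.13 (adjusted p = 0.871) and the departure from additivity 0.084 (95% interval -0.61 to 0.78; adjusted p = 0.996). Both genes varied more between libraries of a group than genes of like abundance did, with a biological coefficient of variation of 0.212 for sox9b and 0.23 for sox9a against fitted trends of 0.134 and 0.136.

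Taken within a library, the ratio of sox9b counts to sox9a counts needs no scaling for depth. It compares libraries only, since the counts are not divided by transcript length. The ratio was 4.006, 2.581, 2.246 and 6.837 in WT controls, and 1.654, 1.251, 3.308 and 2.899 in WT with TCDD. In slincRosu3 it was 1.983, 2.168, 1.943 and 5.94 in controls and 2.252, 1.599, 1.375 and 1.872 with TCDD. The highest values, 6.837 and 5.94, were those of the control libraries numbered 4, where sox9b was at the top of its group and sox9a at the bottom. On the log2 scale the ratio was lower by 0.75 with TCDD in WT (exact permutation p = 0.2) and by 0.60 in slincRosu3 (exact p = 0.171), two-sided, where 4 against 4 libraries can give no p below 0.0286. Over both lines, with labels permuted within a line, it was lower by 0.68 (exact p = 0.0494, and 0.296 after adjustment over 6 comparisons of the ratio). Between lines it was lower in slincRosu3 by 0.42 without TCDD (exact p = 0.429), by 0.27 with it (exact p = 0.457) and by 0.35 over both (exact p = 0.273). Without the 4 libraries that stand apart the log2 ratio difference with TCDD was -0.99 in WT (exact p = 0.1, the smallest that 3 against 2 libraries allow) and -0.22 in slincRosu3 (exact p = 0.314), and -0.60 over both (exact p = 0.0257, unadjusted). The line difference was then -0.49 without TCDD (exact p = 0.1, the smallest that 3 against 3 libraries allow), 0.28 with it and -0.11 over both (exact p = 0.4 and 0.643). Single libraries moved these values as well. The TCDD difference was -0.22 in slincRosu3 without its control 4 and -0.43 in WT without WT control 4. The line difference without TCDD ran from -0.10 without WT control 4 to -0.81 without slincRosu3 control 4, and that with TCDD from -0.058 without WT TCDD 3 to -0.53 without WT TCDD 2. The averaged TCDD difference had an exact p above 0.05 without any 1 of WT control 1 and 4, WT TCDD 1 and 2, slincRosu3 control 4 and slincRosu3 TCDD 2, 3 and 4.

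**Figure D3:**
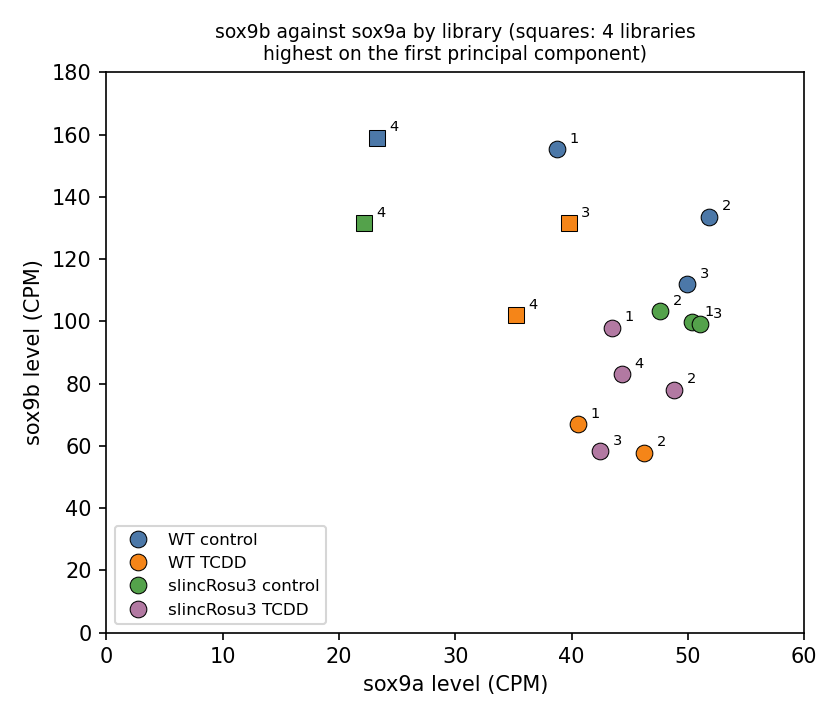
Level of sox9b against sox9a (CPM) in 16 libraries, coloured by group and numbered by replicate; squares mark the 4 libraries highest on the first principal component. The squares of both control groups lie at the left, at 22.16 and 23.27 CPM of sox9a, and the TCDD libraries with the least sox9b, 57.82 to 67.05 CPM, lie at the lower right.

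Of the 5 SoxE genes, sox9b alone passed the threshold in any contrast, the joint one, where 3.14% of all genes passed. The gene sox10, which specifies pigment cells and glia of the neural crest, stood at 39.35 to 62.22 CPM over all libraries, with a log2 effect of TCDD of 0.10 averaged over lines (adjusted p = 0.894 by edgeR). The genes sox8a and sox8b were near the detection limit, at 0.331 to 1.51 and 0.812 to 2.46 CPM. Their log2 fold changes from WT control to slincRosu3 with TCDD were -0.79 and -0.47 (adjusted p = 0.337 and 0.45), with -0.82 for sox9b in the same contrast. For TCDD averaged over lines sox8a and sox8b had -0.28 and -0.38 (edgeR's adjusted p = 0.919 and 0.728). By line, sox8b had -0.73 in WT (adjusted p = 0.518) and -0.028 in slincRosu3 (adjusted p = 0.999), and sox8a -0.03 and -0.52 (adjusted p = 0.995 and 0.999). The SoxD genes sox5, sox6 and sox13 had averaged TCDD effects of 0.026, 0.028 and 0.062 on the log2 scale (adjusted p from 0.953 to 0.988). Of 17 other Sox genes tested none passed in any of the 8 contrasts. Over these contrasts 0% to 5.45% of all genes passed, so a count of 0 is near that share. The median of the 17 for the averaged TCDD effect was -0.079, against -0.000913 over all genes.

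The list of cartilage matrix genes, many of them direct Sox9 targets, was measured for 22 of 24 genes. With TCDD averaged over lines none passed, in a contrast where 0.804% of all genes did. The median log2 fold change was -0.049, and values ran from -0.35 to 0.91 against a median of -0.000913 over all genes. From WT control to slincRosu3 with TCDD, where sox9b passed as lower, 1 of 22 passed and it was higher, as 1.92% of all genes were: comp, which encodes a matrix protein of cartilage and tendon, rose from 44.1 ± 1.94 to 58.8 ± 1.72 CPM (SD, n = 4 each), a log2 fold change of 0.42 with edgeR's adjusted p = 0.0127. The link protein gene hapln1a, which ties aggrecan to hyaluronan, was higher in slincRosu3 over both treatments by 0.28 on the log2 scale by edgeR's test (adjusted p = 0.00847; 2.65% of all genes passed as higher), with 470.3 to 536.3 CPM in mutant controls against 393.8 to 406.8 CPM in WT controls. The type II collagen gene col2a1a, the classic Sox9 target, was chosen for naming after its values were seen. It stood at 2980 ± 212 CPM in WT control, 3064 ± 271 in WT with TCDD, 3167 ± 288 in slincRosu3 control and 2760 ± 291 in slincRosu3 with TCDD (SD, n = 4 each). Its change in the joint contrast was -0.11 (95% interval -0.34 to 0.12; adjusted p = 0.708).

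Among genes of skeletal patterning and bone, 1 of 16 passed with TCDD averaged over lines, where 0.722% of all genes passed as higher. It was msx2b, a homeobox gene that responds to BMP, which rose by 0.66 on the log2 scale (adjusted p = 6.75e-04 by edgeR). WT controls held 12.76 to 16.92 CPM of it and WT with TCDD 19.37 to 25.3 CPM. In slincRosu3 its controls held 11 to 15.39 CPM and the TCDD libraries 19.39 to 24.11 CPM. By line msx2b passed in slincRosu3 (0.76, edgeR's adjusted p = 0.0114), and no gene of the list passed in WT (smallest adjusted p = 0.112). None of 21 BMP genes and none of 7 R-spondin and receptor genes passed for TCDD, where 0.325% to 0.804% of all genes passed. The BMP antagonist gene chrd was lower in slincRosu3 over both treatments (-0.59, edgeR's adjusted p = 0.0239, where 2.8% of all genes passed as lower). In the joint contrast, where 1.21% of all genes passed as lower, 1 of 15 neural crest genes did so, crestin, a zebrafish marker of migrating neural crest, with 4.1 ± 1.26 CPM in WT control against 1.77 ± 0.729 CPM under mutation and TCDD (SD, n = 4 each; log2 fold change -1.21, adjusted p = 0.0127). It was also lower in slincRosu3 over both treatments (-0.77, adjusted p = 0.0161). Of 11 glial genes 1 passed as lower in the joint contrast, fabp7a, a radial glia marker (-0.49, adjusted p = 0.0256), and it passed as a line difference over both treatments as well (-0.31, adjusted p = 0.0307). Of 10 heart genes 7 had a positive log2 fold change in the joint contrast, with a list median of 0.13. The 1 that passed went the other way, as lower: nkx2.5, a cardiac transcription factor gene near the detection limit, with 70 to 150 counts per group (-1.09, edgeR's adjusted p = 0.00483). It was already lower in slincRosu3 without TCDD, at 1.05 ± 0.0671 CPM against 2.1 ± 0.39 CPM in WT control (SD, n = 4 each; -0.99, edgeR's adjusted p = 0.0153), and none of these 3 genes passed for TCDD. In the joint contrast none of 6 erythroid, 9 skeletal muscle and 8 photoreceptor genes passed, with medians of -0.019, -0.057 and -0.027. All 10 AHR target genes had a positive log2 fold change there, and 9 passed as higher, as 1.92% of all genes did. In the 4 libraries that stand apart the mean centred log2 score of skeletal muscle genes was 0.12 to 0.33, against -0.20 to 0.13 in the other 12, and that of cartilage matrix genes was -0.25 to 0.13 against -0.41 to 0.24. Their part in the sox9 values was not tested.

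Genes around both members were taken by their order in the RefSeq gene table of the assembly GRCz12tu, which served for names and order only, since counts rest on GRCz11. Next to sox9b on one side lies the slincR gene, then sstr2b, a noncoding gene and sox8b. Of 11 listed neighbors 6 were matched to a gene of the count table, and 5 of these had enough counts for a test. The somatostatin receptor gene sstr2b did not, with 11 counts in WT control, 10 in WT with TCDD, 1 in slincRosu3 control and 5 in slincRosu3 with TCDD over 4 libraries each. Of the 5 tested, iqck passed, lower in slincRosu3 over both treatments by 0.82 on the log2 scale (edgeR's adjusted p = 0.0159, where 2.8% of all genes passed as lower), at 0.625 to 1.21 CPM in the 8 mutant libraries and 0.913 to 2.22 CPM in the 8 WT libraries. With 64 to 124 counts per group, iqck was near the detection limit. Near sox9a 6 of 20 listed neighbors were matched and 4 of these tested. Of them vstm4b passed as higher with TCDD over both lines (0.50, edgeR's adjusted p = 0.0351, where 0.722% of all genes passed as higher) and in the joint contrast (0.71, adjusted p = 0.0137, where 1.92% did). The somatostatin receptor gene sstr2a did not pass in the joint contrast (0.94, adjusted p = 0.0904), and usp22, a deubiquitinase gene, stood at 21.65 to 30.88 CPM in all libraries. Nearby lrrc18b had 11 to 16 counts per group and was not tested.

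Likeness of pattern was measured by Pearson's r of log2 CPM over 16 libraries among 14796 genes with a symbol and a mean of at least 1 CPM, as a description of libraries that share depth and composition. The nearest to sox9b were fancg and fignl1, both known from DNA repair, fbxl14b, the chemokine gene cxcl12b and the retinal homeobox gene rx1, with r from 0.85 to 0.909. In cxcl12b the WT controls stood at 45.72 to 65.89 CPM and WT TCDD 1 to 4 at 30.95, 26.43, 43.83 and 34.33 CPM, high in library 3 as in sox9b. For deviations from group means the nearest were her8a, pou3f3a, cherp, nr2e1 and tgfbi (r from 0.955 to 0.959). The neural gene her8a stood at 15.91, 13.29, 41.95 and 29.39 CPM in WT TCDD 1 to 4. The nearest to sox9a were six5, npnt, dcbld2, znf319b and ptprd, with r from 0.975 to 0.977. For deviations from group means six5, ptprd and npnt were again among the nearest 5, with bcl11aa and sema3b (r from 0.981 to 0.984). The receptor phosphatase gene ptprd had 4.169 CPM in the WT control numbered 4, 2.95 CPM in that of slincRosu3 and 12.86 to 55.28 CPM in the other 14 libraries. These genes were picked for that likeness, so their levels are a description.

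In the authors' deposited table, the log2 fold change of sox9b against WT control was -0.65 with TCDD (adjusted p = 0.221), -0.37 with the mutation (adjusted p = 0.602) and -0.82 with both (adjusted p = 0.00958). Those of sox9a in the authors' deposited table were -0.026, 0.06 and 0.13 (adjusted p from 0.908 to 1.00). The 3 share the WT control libraries. For WT the counts of both read files of each library could be set side by side, and they differed by 0.235% to 6.46% of their sum for both genes, with sox9b in WT TCDD 3 at 1255 and 1193 counts and in WT TCDD 2 at 567 and 551. Both files belong to the same library, so their likeness says nothing of the spread between libraries.

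**Figure D4:**
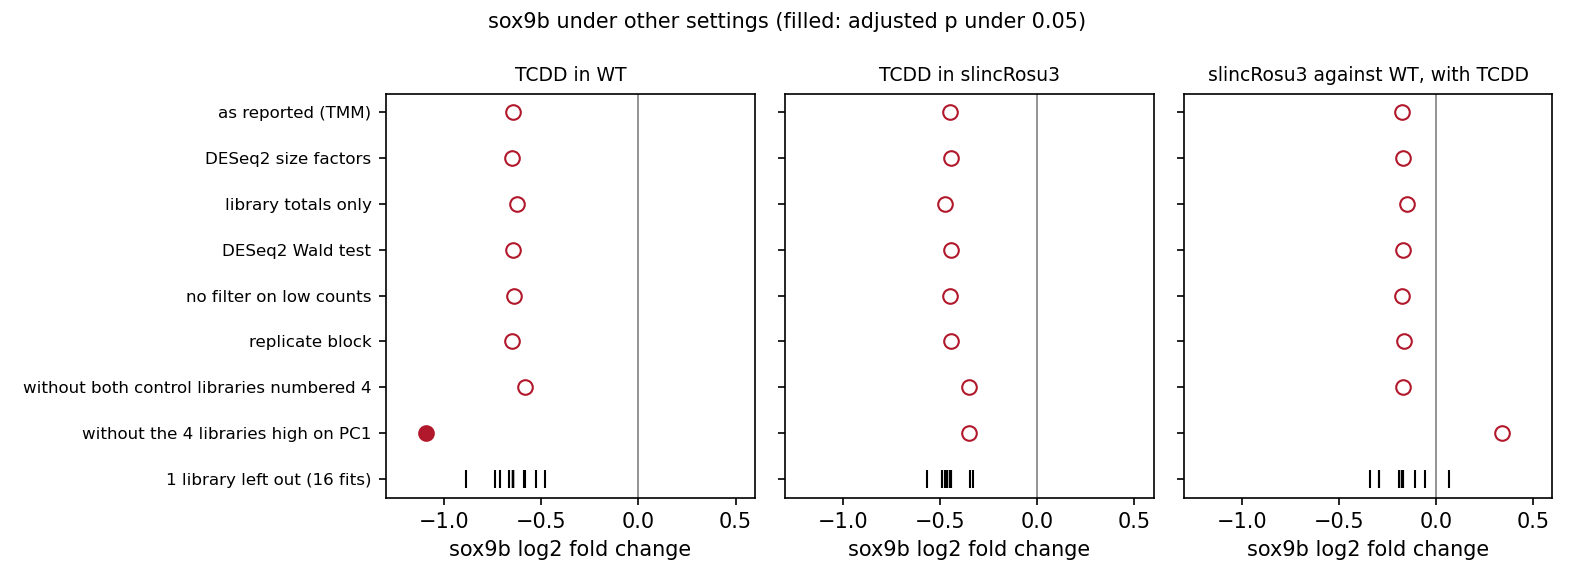
Log2 fold change of sox9b in 3 contrasts as reported and under other settings, with filled points for adjusted p under 0.05 and black ticks for the 16 fits that each leave out 1 library. The value for TCDD in WT moves from -0.64 to -1.09 without the 4 libraries high on the first principal component, and that of slincRosu3 against WT with TCDD from -0.18 to 0.34. Those 4 libraries were picked from these same data.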

How the data were processed

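Total RNA of whole zebrafish embryos was sequenced. The submitters' processing notes name HISAT2, STAR, DESeq2 and the build GRCz11. Versions, counting program, annotation and strandedness are not stated there, so reads of a gene and of one that overlaps it or runs antisense may be mixed. The authors deposited raw counts per gene, summed over 2 read files per library with zero-count and low genes removed, per the file headers and the table's name. In the authors' column for slincRosu3 control 2, treated like expected counts, 1 value was not whole and was rounded. Why it is not whole is not stated. If the 2 files hold mates of a pair, their counts are not independent molecules. The authors' log2 fold changes, with p-values, are from DESeq2 by the form of the file headers. Another 78 count columns were not used, since names or values did not match 1 labelled library.

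Groups followed the sample titles. All 16 libraries entered 1 edgeR 4.0.16 quasi-likelihood fit (R 4.3.3; TMM; filterByExpr, 20907 genes; 12 residual degrees of freedom; two-sided; Benjamini-Hochberg over all genes; threshold 0.05). Intervals are 95%. The ratio used log2 with 1 added to each count. Alternatives were DESeq2 1.42.0, other scalings, no filter, a replicate block, fits of the groups compared and libraries left out. Members, lists and tests were chosen with earlier results of these data known. Named genes were the members, all SoxE and SoxD genes, list and nearby genes past the threshold, the 2 nearest measured neighbors on each side and the 5 most alike in pattern. AHR targets other than cyp1a, taken by the rule, are given only as a count and within a list mean. The fit was also run on simulated counts with the spread of the fitted trend. Both members varied more than that trend, so the run says little of power for them.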

Additional observations from a re-analysis of the deposited data

Results flagged for a closer look

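In slincRosu3 control the library numbered 4 lay apart from the 3 others in all 3 member measures, by a gap to its nearest neighbor above Dixon's 95% critical share of the group's range. Its sox9b stood at 131.6 CPM, its sox9a at 22.16 CPM, and its log2 ratio of sox9b to sox9a at 2.567. The ratio is computed from the counts of both genes, so its flag is no separate observation. Of 12 groups of values checked, chance alone would flag about 1 in 20. The same library is among the 4 that stand apart on the first principal component, and WT control 4, with 23.27 CPM of sox9a, is another. The cause was not tested.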

How the results depend on the processing

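For sox9b, other scalings changed no call and no direction. Adjusted p of the averaged TCDD effect fell under the threshold by DESeq2 (-0.55, adjusted p = 0.0415) and without the 4 libraries apart (-0.72), where TCDD in WT also passed (-1.09) and the line difference with TCDD turned to 0.34, as did that of the ratio, to 0.28. Those 4 libraries were picked from these same data, so a pass without them adds no support. The joint contrast missed the threshold with no filter (-0.82, adjusted p = 0.0504) and, chosen after seeing the data, without both control libraries numbered 4 (-0.75, adjusted p = 0.062). The uncalled sox9a effects changed sign without the 4 libraries for TCDD in slincRosu3 (-0.16), the averaged TCDD effect (-0.13), the joint contrast (-0.067) and additivity (-0.048), and without both numbered 4 for the first 3 (-0.16, -0.19 and -0.067). Leaving out 1 library gave sox9b -0.94 to -0.70 in the joint contrast, -0.67 to -0.47 for averaged TCDD and -0.34 to 0.068 for the line with TCDD. It gave sox9a -0.22 to 0.11 for TCDD in WT, -0.15 to 0.16 in slincRosu3, -0.085 to 0.089 averaged, -0.13 to 0.28 for the line in controls, -0.13 to 0.28 for additivity and -0.067 to 0.26 jointly. The averaged ratio ran from -0.79 to -0.48 (exact p from 0.031 to 0.107). With the replicate number as a block, sox9a for TCDD in WT was 0.028, and the averaged ratio of -0.68 had exact p = 0.0625 from sign flips of same-numbered pairs; no other member call changed. Same-numbered libraries of different groups correlated from -0.276 to 0.676 in their deviations, over 0.1 in 16 of 24 pairs, and 12 of 16 libraries correlated best with their own number, a hint from the data, not from the design, of a shared source. Since not every pair was over 0.1 and no label ties the numbers, the unblocked fit was kept.

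Counts of called genes, which set the background, moved by more than 1.5 times by DESeq2 for TCDD in WT (68 to 147), TCDD in slincRosu3 (80 to 157), the line in controls (321 to 499), the line with TCDD (389 to 674) and averaged TCDD (168 to 266). Without the 4 libraries they were 327, 170, 604, 697, 486 and, jointly, 1936 against 656. Fits of the groups compared gave 26 for TCDD in WT and 149 for the line in controls. Without both control libraries numbered 4, 590 passed for the line with TCDD and 987 jointly. Leaving out 1 library moved 13 of 128 such counts that far. With 4 libraries a group, the interval of sox9b's additivity is wide, and counting error of 1077 to 2768 counts is small beside the spread between libraries.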
